A study of Mus musculus with 30 samples.

Results

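Stefins are inhibitors of cysteine cathepsins, and the measurements below describe the stefin A genes, stefin B, cystatin M/E and cathepsins L and S in mouse back skin during TPA-induced inflammation. The members are the 9 gene symbols Stfa1, Stfa2, Stfa3, Stfa2l1, BC100530, Cstb, Cst6, Ctsl and Ctss, and every probe set of the array that carries one of them was taken. This gave 9 of 45037 probe sets, for 8 of the 9 symbols, among 22121 symbols on the array. A probe set is a group of short probes on the array that reports 1 value for a transcript. Stfa2 was not analysed here, because no probe set carried its symbol. Stfa1 and BC100530 share probe set 1435761_at, so their signals cannot be told apart, whereas Cstb and Ctsl each have 2 probe sets. All 9 probe sets passed the filter on dim probe sets, the dimmer of Ctsl only through D6-deficient arrays, so nothing is read from that one's tests. The rule used gene symbols and no measured value, but the members were chosen with earlier results of these data known. Counts of members set beside shares of all probe sets are therefore descriptions.

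Shaved back skin came from female wild type (WT) and D6-deficient mice of the mixed strain 129–C57BL/6, aged 8 to 12 weeks. D6, also called Ccbp2 or Ackr2, is a scavenging receptor that removes inflammatory CC chemokines, and the mutant mice carry a null allele in every cell. TPA, a phorbol ester that activates protein kinase C, was painted on in acetone at 50 µM in 3 applications a day apart, and whole skin was taken 1, 2, 4 or 6 days later. The controls of both genotypes received acetone alone, are titled untreated in the labels and stand as day 0. There were 30 arrays, 3 for each genotype at each of the 5 times, and every array came from a different mouse. Values are log2 RMA intensities with the SD over the 3 arrays of a group, and a difference of 1 on this scale is a doubling. A change is said to have passed when its Benjamini-Hochberg adjusted p in limma was under 0.05, and a probe set was called when its change was also more than 3-fold.

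Cystatins bind the active site cleft of papain-like proteases tightly and reversibly. The stefins act inside cells and lack a secretion signal, stefin A is also built into the cornified envelope of keratinocytes, and cystatin M/E is secreted and inhibits both cathepsin L and legumain. In epidermis, cathepsin L takes part in the proteolysis that accompanies cornification, including the activation of transglutaminase 3, whereas cathepsin S is best known for trimming the invariant chain of MHC class II in antigen-presenting cells. Humans have a single stefin A gene, whereas the mouse locus was duplicated many times.

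In RefSeq's GRCm38.p6 assembly the mouse locus on chromosome 16 holds 11 stefin A genes in the order Csta1, Stfa2l1, Cstdc4, Csta3, Csta2, Stfa1, Cstdc3, Cstdc6, Cstdc5, Stfa2 and Stfa3, where Cstdc5 is the current symbol of BC100530. Stefin B lies apart on chromosome 10, Cst6 on chromosome 19, Ctsl on chromosome 13 and Ctss on chromosome 3. Since the stefin A probe sets of the members changed together, the RefSeq promoters of their genes are printed here. Each runs 5′ to 3′ from 250 bases before the annotated start to 50 bases after it. The promoters of 7 of the 9 members could be matched by symbol. Capitals mark the longest stretch common to all 5 stefin A members, 17 bases long, and in Stfa3 also a TGAGTCA, the AP-1 motif TGACTCA read on the other strand.
Stfa1 (chr16:36276898-36277197, plus strand): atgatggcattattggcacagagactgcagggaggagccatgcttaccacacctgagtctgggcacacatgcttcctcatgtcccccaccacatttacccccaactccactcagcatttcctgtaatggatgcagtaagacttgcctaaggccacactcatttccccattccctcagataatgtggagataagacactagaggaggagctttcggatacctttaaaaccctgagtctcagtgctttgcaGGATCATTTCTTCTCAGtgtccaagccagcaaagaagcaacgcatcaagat
BC100530 (chr16:36367521-36367820, minus strand): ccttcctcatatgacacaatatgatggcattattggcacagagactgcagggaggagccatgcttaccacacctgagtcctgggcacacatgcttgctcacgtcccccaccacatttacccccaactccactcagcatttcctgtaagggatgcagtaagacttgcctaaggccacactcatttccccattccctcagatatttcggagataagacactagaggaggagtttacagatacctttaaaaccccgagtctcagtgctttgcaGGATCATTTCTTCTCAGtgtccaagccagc
Stfa3 (chr16:36455343-36455642, minus strand): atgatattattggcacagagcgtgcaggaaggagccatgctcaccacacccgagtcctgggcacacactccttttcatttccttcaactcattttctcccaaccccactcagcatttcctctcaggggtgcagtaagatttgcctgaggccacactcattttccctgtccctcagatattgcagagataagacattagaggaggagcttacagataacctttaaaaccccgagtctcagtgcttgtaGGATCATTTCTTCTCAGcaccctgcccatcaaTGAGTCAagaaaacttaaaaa
Stfa2l1 (chr16:36156561-36156860, plus strand): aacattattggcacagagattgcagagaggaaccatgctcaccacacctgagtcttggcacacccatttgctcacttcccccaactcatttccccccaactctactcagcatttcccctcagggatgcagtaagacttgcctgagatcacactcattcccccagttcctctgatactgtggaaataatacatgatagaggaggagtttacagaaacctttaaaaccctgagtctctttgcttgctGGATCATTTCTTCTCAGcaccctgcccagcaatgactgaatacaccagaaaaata

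The Stfa1 and BC100530 promoters had 269 identical bases in a gapped alignment, 89.7% of the window of 300. Stfa2 and Stfa2l1 had 275, or 91.7%. These shares are of the window length, so windows offset against each other read lower than their aligned bases alone would. The other pairs of stefin A promoters shared between 78.7 and 82.7%. By the same gapped alignment, the stefin A promoters were 57 to 60% identical to those of Ctsl and Ctss, which were 57.7% identical to each other. The 17-base stretch, searched on both strands, occurred in 6 of the 32851 promoters of the table (0.0183%), namely those of the 5 stefin A members and of Csta3. It began within 5 bases before the annotated start in Stfa1, Stfa2, Stfa3 and Stfa2l1, and 21 bases after it in BC100530. All 5 held TTTAAAA upstream of this stretch, a run that 8.74% of all promoters held on either strand. The AP-1 motif TGACTCA was found in 1 of the 5 against 5.2% of all promoters, and TTGCNNAA, where N is any base, in 2 of the 5 against 10.8%. These matches describe the letters in this window and were not tested for binding.

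The arrays had medians between 5.64 and 5.80, and the median SD within a group over the 36029 tested probe sets was 0.187. Of 3 probe sets for the D6 gene, 1 separated the genotypes without overlap, at 4.15 to 5.76 on the 15 WT arrays and 3.30 to 3.86 on the 15 D6-deficient arrays. The arrays were cut into sets of 13 and 17 at the largest gap along the main direction in which the hybridization controls varied. Every group but D6-deficient day 6 had arrays in both. Such a cut always gives 2 sets, so these sets are not known batches, and differences within them are only descriptions. Keratinocyte markers were bright as a sum on every array, but single genes were dim in some groups. Krt16 averaged 6.11 in WT controls, and Flg averaged 5.59 in D6-deficient skin on day 4. The summed linear intensity of all 10 listed keratinocyte genes ran from 39425 to 42581 in WT controls and from 103054 to 125797 in WT skin on day 2.

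TPA raised the stefin A probe sets further than any other member, and for Stfa1, BC100530 and Stfa3 the rise was near its full height on day 1. On probe set 1435761_at, for Stfa1 and BC100530, the WT control arrays read 11.28, 6.96 and 8.10, with a mean of 8.78 ± 2.24. One day after TPA the 3 WT arrays lay between 14.16 and 14.40, on day 2 between 14.51 and 14.60, on day 4 between 14.40 and 14.44 and on day 6 between 13.64 and 14.21. All treated arrays were thus above all control arrays, and the controls were far more scattered than the treated skins. The change in WT skin was 5.54 on day 1 (46.4-fold, SE 0.60, adjusted p = 8.45e-07), 5.77 on day 2 (54.6-fold), 5.65 on day 4 (50.1-fold) and 5.18 on day 6 (36.2-fold). The highest value of the whole table was 14.98, and how far signals this close to the top were compressed was not tested.

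Stfa3 (probe set 1419709_at), the gene at the far end of the cluster, followed the same course. Its WT control arrays read 9.81, 7.72 and 7.97, and its treated WT arrays lay between 12.82 and 13.99. The change in WT skin was 5.11 on day 1 (34.5-fold, SE 0.40, adjusted p = 8.24e-09), 5.43 on day 2 (43.1-fold), 4.92 on day 4 (30.4-fold) and 4.76 on day 6 (27-fold). Across the 10 group means the 2 probe sets had a Pearson r of 0.996, given as a description, since the groups share the rise after TPA.

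Stfa2l1 (probe set 1442339_at) reached its highest mean on day 2. Its WT control arrays read 6.24, 5.47 and 5.56, and the means in WT skin were 11.18 ± 0.70 on day 1, 12.41 ± 0.16 on day 2, 11.94 ± 0.16 on day 4 and 10.46 ± 0.95 on day 6. The changes from day 0 were 5.42, 6.65, 6.18 and 4.70, equal to 42.9-, 100-, 72.7- and 26-fold (SE 0.41, adjusted p from 7.45e-11 to 8.59e-08). Between days 4 and 6 it fell by 1.48 in WT skin (SE 0.41, adjusted p = 0.0101), with all 3 arrays of day 6 below all 3 of day 4. Without replicate 1 of WT day 6, the array at 9.47, the value was -0.99 and the adjusted p rose to 0.0973.

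The same 3 probe sets rose in D6-deficient skin, from higher control values. The probe set for Stfa1 and BC100530 read 11.42, 10.84 and 12.99 in the D6-deficient controls, and the treated D6-deficient arrays lay between 13.69 and 14.68. Its change from day 0 was 2.59 on day 1 (6.04-fold, SE 0.60, adjusted p = 0.00161), 2.88 on day 2 (7.38-fold), 2.68 on day 4 (6.41-fold) and 2.26 on day 6 (4.8-fold). Stfa3 rose by 2.85 on day 1 (7.2-fold, SE 0.40, adjusted p = 7.71e-06), 2.86 on day 2, 2.53 on day 4 and 2.43 on day 6. Stfa2l1 rose by 4.74 on day 1 (26.8-fold, SE 0.41, adjusted p = 1.54e-08), 5.50 on day 2 (45.4-fold), 4.61 on day 4 and 3.70 on day 6.

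In each genotype the called members on each day were these 3 of 9 probe sets, all higher after TPA. Over all tested probe sets, 0.93% were called higher in WT skin on day 1, 1.2% on day 2, 1.76% on day 4 and 0.799% on day 6. In D6-deficient skin the shares were 1.06, 1.7, 1.97 and 0.888%. With the fold threshold left aside, 5 members passed as higher on day 1 in WT skin, 6 on day 2, 7 on day 4 and 5 on day 6, against 11.4, 11, 17.3 and 10.2% of all probe sets. In D6-deficient skin 5, 7, 6 and 5 members passed as higher, against 18.2, 17.5, 18.8 and 16% of all. The median change of the 9 members in WT skin was 1.24 on day 4, where the median of all tested probe sets was 0.01. In whole skin a greater share of the cells that make a transcript and more transcript in each of those cells cannot be told apart. Markers of other cells moved over the same days. The 10 neutrophil genes found of 12 listed, S100a8 and S100a9 included, summed to 1010 to 4797 in WT controls, 12605 to 23063 on day 1, 38437 to 51905 on day 2, 46651 to 60092 on day 4 and 7846 to 9199 on day 6, and 8 of the 10 passed as higher on day 4. Without S100a8 and S100a9, the other 8 genes summed to 535 to 577 in WT controls and 558 to 714 on day 1. They summed to 802 to 1538 on day 2, 4247 to 8845 on day 4 and 535 to 665 on day 6. All 5 skeletal muscle markers passed as lower on every day in both genotypes. Their part in the stefin changes was not tested.

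**Figure D1:**
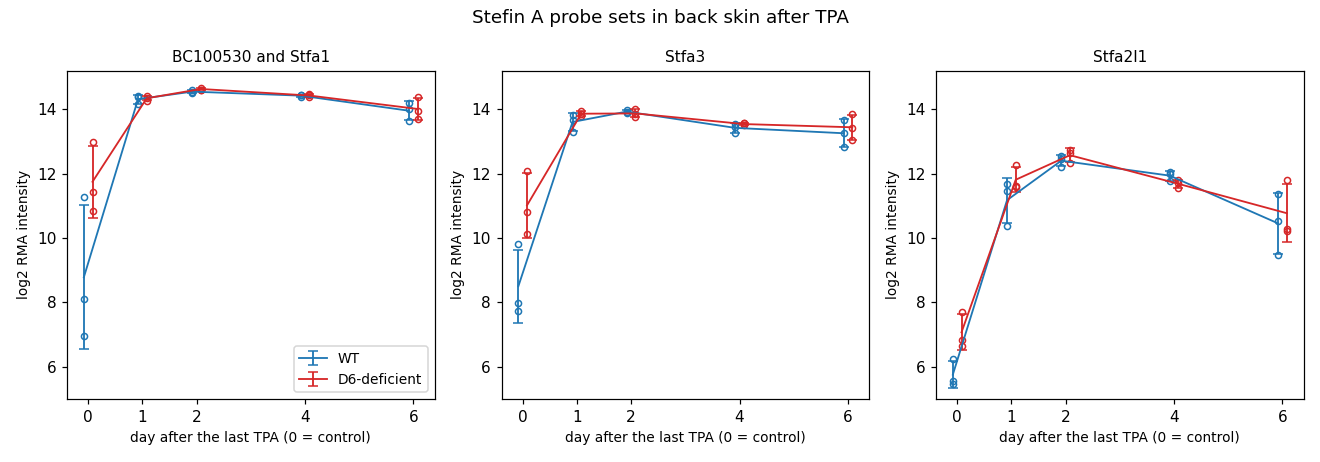
The 3 stefin A probe sets by day (x axis, day after the last TPA application, with 0 for acetone controls) as log2 RMA intensity (y axis). Open circles are single arrays, and lines join the group means with SD bars (n = 3) for WT in blue and D6-deficient in red. The genotypes lie apart at day 0, where the probe set for Stfa1 and BC100530 averages 8.78 for WT against 11.75 for D6-deficient mice. From day 1 on the means differ by at most 0.08 for that probe set, 0.26 for Stfa3 and 0.64 for Stfa2l1.

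The genotypes were next compared on the same day, which asks whether loss of D6 altered the level itself. In acetone-treated controls, 2 of the 3 stefin A probe sets were higher in D6-deficient skin. Stfa3 averaged 8.50 ± 1.14 in WT and 11.02 ± 1.00 in D6-deficient controls, a difference of 2.52 (5.72-fold, SE 0.40, adjusted p = 0.00166). The D6-deficient arrays at 10.82, 10.13 and 12.10 were all above the highest WT array at 9.81. For Stfa1 and BC100530 the difference was 2.97 (7.83-fold, SE 0.60, adjusted p = 0.013), but here WT replicate 1 at 11.28 exceeded the lowest D6-deficient array at 10.84. Stfa2l1 averaged 5.76 ± 0.42 and 7.07 ± 0.56, with all D6-deficient arrays at 6.84, 6.66 and 7.71 above the WT arrays, and its difference of 1.31 (SE 0.41) did not pass, at an adjusted p of 0.106.

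Thus 2 of the 9 members were called higher in D6-deficient controls, where 0.0527% of all tested probe sets were. For Stfa3, leaving out any 1 of the 6 control arrays left differences between 1.98 and 3.17 and adjusted p values up to 0.0161. For Stfa1 and BC100530 the range was 2.06 to 4.22, and the adjusted p rose to 0.084, 0.0695 and 0.0947 without WT replicate 2, WT replicate 3 and D6-deficient replicate 3. When only the 6 control arrays were fitted, the adjusted p was 0.109 for Stfa3 and 0.223 for Stfa1 and BC100530. Within the sets defined by the hybridization controls, the difference in Stfa3 was 3.15 in one set (2 D6-deficient arrays against 1 WT) and 2.06 in the other (1 against 2). For Stfa1 and BC100530 it was 3.81 and 2.30.

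The scatter of the controls was shared between the stefins. WT replicate 1 was the highest WT control on all 3 stefin A probe sets, and D6-deficient replicate 3 the highest D6-deficient control. These arrays also stood out for S100a8 and S100a9, calprotectin subunits made by neutrophils and by activated keratinocytes. The summed linear intensity of the 10 neutrophil genes was 4797, 1010 and 1189 on the WT control arrays and 4353, 2902 and 15222 on the D6-deficient ones. Without S100a8 and S100a9 the other 8 neutrophil genes summed to 535 to 577 in WT and 461 to 539 in D6-deficient controls. Keratinocyte markers summed to 39425 to 42581 and to 56265 to 61271, and 4 of the 10 genes passed as higher in D6-deficient controls, among them Krt16 by 2.48 (adjusted p = 0.0184) and Krt6b by 3.51 (adjusted p = 0.0236), keratins of activated epidermis. Their part in the difference between the control skins was not tested.

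After TPA the stefin A differences between the genotypes were smaller, and none passed. For Stfa1 and BC100530 the differences on days 1, 2, 4 and 6 were 0.03, 0.08, 0.00 and 0.05, with 95% intervals reaching at most from -1.24 to 1.32. For Stfa3 they were 0.26, -0.06, 0.12 and 0.19, with intervals between -0.87 and 1.07, and for Stfa2l1 0.64, 0.17, -0.25 and 0.32, with intervals between -1.10 and 1.48. In limma 1 spread per probe set is taken from all groups, and for Stfa1 and BC100530 the SD was 2.24 in WT controls and 1.11 in D6-deficient controls, but at most 0.35 in any treated group. On day 2 the single arrays for Stfa1 and BC100530 lay within 14.51 to 14.60 in WT and 14.61 to 14.68 in D6-deficient skin. By group mean only 4 tested probe sets were brighter than this one in WT skin and 2 in D6-deficient skin on that day. How far compression near the top of the scale narrowed the differences after TPA was not tested. No member other than Ctss passed between the genotypes after TPA by limma, and on days 1, 2, 4 and 6 an unadjusted p under 0.05 was reached by 1, 2, 1 and 1 of the 9 members, on day 6 the dimmer Ctsl probe set. After adjustment, the unpaired test named in the methods passed 0 of the 9 on these days, Ctss included. On days 1, 4 and 6 only 0.0555, 0.513 and 0.125% of all tested probe sets passed in either direction. These shares are for the adjusted p, and none is given for the unadjusted counts.

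When each genotype was set against its own controls, Stfa3 and the probe set for Stfa1 and BC100530 rose less in D6-deficient than in WT skin. On day 2 this difference between the changes was -2.57 for Stfa3 (SE 0.56, adjusted p = 0.00623) and -2.89 for Stfa1 and BC100530 (SE 0.85, adjusted p = 0.0464). Thus 2 of 9 members were called lower on day 2, against 0.555% of all tested probe sets. On day 4 it was 1 of 9, Stfa3 at -2.40 (SE 0.56, adjusted p = 0.0462), against 0.103%. The values on the remaining days were of similar size, from -2.26 to -2.33 for Stfa3 and -2.91 to -2.97 for Stfa1 and BC100530, and did not pass, with adjusted p values from 0.118 to 0.301. For Stfa2l1 the values of -0.68 to -1.57 did not pass (adjusted p from 0.258 to 0.738). All of these contrasts contain the same control arrays, and each equals the difference of the day less the difference at day 0. For Stfa3 and for Stfa1 and BC100530 most of each value was thus the day 0 difference with its sign turned. How far compression of the bright signals after TPA made the rise smaller from the higher controls was not tested.

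The call on day 2 for Stfa1 and BC100530 was lost when any 1 of 10 of its 12 arrays was left out, with values from -1.98 to -4.14 and adjusted p values up to 0.149. The call on day 4 for Stfa3 was likewise lost for 10 of 12 arrays, with values from -1.86 to -3.05 and adjusted p values up to 0.14. Without WT day 0 replicate 1, the high control, the contrasts became larger on every day, for example -4.19 on day 1 for Stfa1 and BC100530 (adjusted p = 0.000513) and -2.92 for Stfa3 (adjusted p = 0.0136). The call for Stfa3 on day 2 passed without each of its 12 arrays in turn, with adjusted p values up to 0.0261.

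**Figure D2:**
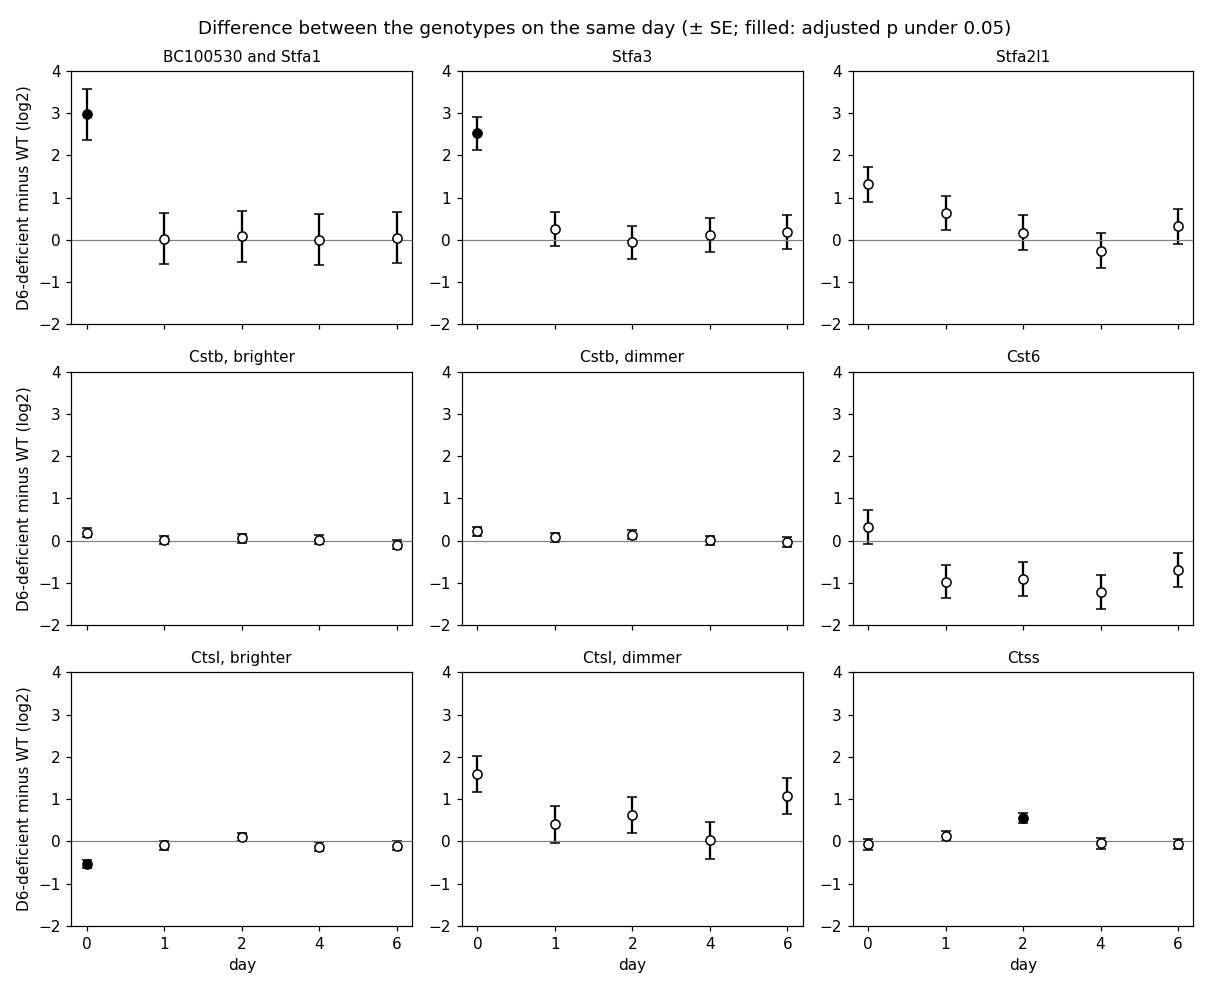
Difference between D6-deficient and WT skin on the same day (y axis, log2, the same range in every panel) for the 9 probe sets on days 0, 1, 2, 4 and 6 (x axis). Points are differences of group means with SE bars from limma, filled where the adjusted p was under 0.05. Filled points stand at day 0 for Stfa1 and BC100530 (2.97), Stfa3 (2.52) and the brighter Ctsl probe set (-0.54), and on day 2 for Ctss (0.56).

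Stefin B, the inhibitor present in most cell types, rose by much less than stefin A. On its probe set 1422507_at the WT control arrays ran from 11.26 to 11.43 and the treated WT arrays from 11.94 to 12.66, with no overlap. The changes in WT skin were 0.78, 1.17, 1.24 and 0.80 on days 1, 2, 4 and 6 (SE 0.11, adjusted p from 9.06e-09 to 3.24e-05), between 1.72- and 2.36-fold. In D6-deficient skin they were 0.64, 1.09, 1.03 and 0.55, which all passed. On the brighter probe set 1422506_a_at the changes had the same direction and were smaller, at most 0.68 in WT and 0.53 in D6-deficient skin. There the D6-deficient values of 0.24 on day 1 (adjusted p = 0.0659) and 0.17 on day 6 (adjusted p = 0.21) did not pass.

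No difference in Cstb between the genotypes passed on any day, on either probe set. The 95% intervals of these differences lay between -0.30 and 0.45. From day 4 to day 6 Cstb fell by 0.44 in WT skin (adjusted p = 0.0062) and by 0.47 in D6-deficient skin (adjusted p = 0.00229) on 1422507_at.

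Cystatin M/E (Cst6, probe set 1427910_at) had its highest mean on day 4 in WT skin and in the controls in D6-deficient skin. Cst6 in WT skin averaged 12.07 ± 0.29 in controls, then 12.57, 12.84, 13.33 ± 0.26 and 12.64 on days 1, 2, 4 and 6. Of these the change on day 4 passed, at 1.26 (2.4-fold, SE 0.40, adjusted p = 0.0138), and it no longer passed without WT day 0 replicate 1 or WT day 4 replicate 2 (adjusted p = 0.0561 and 0.0552). In D6-deficient skin the controls averaged 12.39 ± 0.10 and the treated groups 11.60 ± 0.57, 11.93 ± 0.07, 12.12 ± 1.07 and 11.95 ± 0.96, and none of these changes passed. On day 4 the D6-deficient arrays read 10.89, 12.57 and 12.88, all below the WT arrays at 13.16, 13.62 and 13.20. The groups did not overlap on days 1 and 2 either.

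The difference between the genotypes in Cst6 was -0.97 on day 1, -0.91 on day 2 and -1.21 on day 4 (SE 0.40, 95% intervals from -2.03 to -0.09), yet with adjusted p values of 0.544, 0.246 and 0.210 none passed over all tested probe sets. Set against the controls, the changes differed by -1.30, -1.24 and -1.54 on these days and did not pass either. With only the arrays of the contrast in the fit, the day 2 difference did pass (adjusted p = 0.0106), as did the changes from day 0 to day 2 of 0.77 in WT skin (adjusted p = 0.0196) and -0.46 in D6-deficient skin (adjusted p = 0.00773), the D6-deficient change on day 1 (-0.79, adjusted p = 0.0451) and the day 2 difference between the changes (-1.24, adjusted p = 0.00557). The unpaired test named in the methods, after adjustment, also passed the D6-deficient change on day 2 (0.0191) and the day 2 difference between the changes (-1.28, adjusted p = 0.034). For the difference between the changes that test took each treated array less the median of its controls. The spread of the controls thus did not enter its p, and its value differs from the -1.24 of limma. The keratinocyte markers summed to 66920 to 74832 in WT skin on day 4 and to 42375 to 59627 in D6-deficient skin, and their part in the Cst6 values was not tested.

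**Figure D3:**
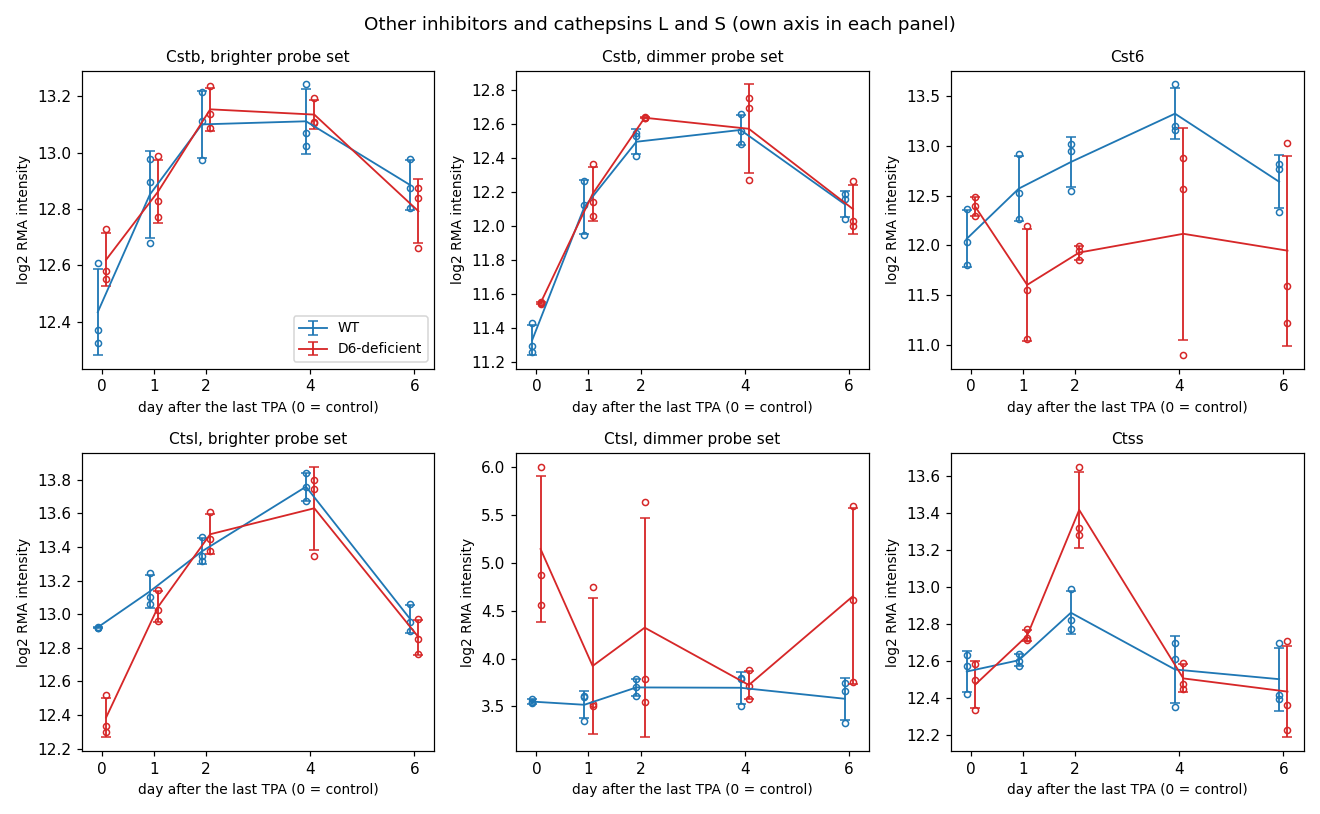
Stefin B, cystatin M/E and cathepsins L and S by day (x axis, day after the last TPA application, 0 for acetone controls) as log2 RMA intensity (y axis, own range in each panel). Open circles are single arrays, and lines join the group means with SD bars (n = 3), WT in blue and D6-deficient in red. The Cst6 means lie lower in D6-deficient than in WT skin after TPA, by differences that did not pass. Ctsl has its highest means at day 4 on its brighter probe set. Ctss peaks at day 2, at 13.42 in D6-deficient and 12.86 in WT skin.

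Among the proteases, cathepsin L had its highest mean on day 4 in both genotypes. On its bright probe set 1451310_a_at all 3 WT control arrays read 12.92, and the D6-deficient controls read 12.30, 12.52 and 12.34, all lower. The difference of -0.54 passed (SE 0.11, adjusted p = 0.00997), and 0.855% of all tested probe sets passed as lower in D6-deficient controls. It no longer passed without D6-deficient day 0 replicate 1 or 3 (adjusted p = 0.0733 and 0.052) and with only the 6 control arrays in the fit (0.06). Within the 2 sets of arrays it was -0.50 and -0.62. Macrophage markers, 9 of 10 found, summed to 35912 to 39317 in WT and 23805 to 31265 in D6-deficient controls, with 3 of the 9 passing as lower, and their part in the Ctsl difference was not tested.

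After TPA, Ctsl in WT skin stood 0.21 above the controls on day 1, which did not pass, and rose by 0.45 on day 2 (adjusted p = 0.00242) and by 0.84 on day 4 (1.79-fold, SE 0.11, adjusted p = 1.13e-06), and on day 6 it stood 0.05 above the controls. In D6-deficient skin the changes of 0.66, 1.09, 1.25 and 0.48 all passed, the highest being 2.37-fold on day 4 (adjusted p = 1.82e-09). There Ctsl read 13.35 to 13.80 on day 4, which overlapped the 13.37 to 13.61 of day 2. From day 4 to day 6 it fell by 0.79 in WT and by 0.77 in D6-deficient skin, with no overlap between the arrays of the 2 days. The rise to day 2 was larger in D6-deficient skin by 0.64 (SE 0.15, adjusted p = 0.0104), a contrast in which 2.78% of all tested probe sets passed as higher, whereas on day 2 itself the genotypes differed by 0.10, with a 95% interval from -0.12 to 0.32.

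The other Ctsl probe set, 1457724_at, did not follow it. It read 3.33 to 3.79 on the 15 WT arrays, where the lowest mean kept by the filter was 3.72. On the D6-deficient arrays it varied within groups, at 6.00, 4.55 and 4.87 in controls and 5.64, 3.54 and 3.79 on day 2. All 5 WT group means were under that lowest mean, so the probe set passed the filter only through the D6-deficient arrays. Nothing is read from the tests of this probe set. It stays, however, in the counts of members and of member contrasts, in the median change of the members and in the figures. Since the probe sets disagree, the brighter one is taken for Ctsl in what follows. By the pattern of the 10 group means, the genes most like the dim probe set were the zinc finger genes Zfp429 (r = 0.992) and Zfp874a (r = 0.981), on chromosome 13. Since its WT means were all under the lowest mean kept, these r rest on the scattered D6-deficient arrays. Nothing is read from them either.

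Cathepsin S (probe set 1448591_at) had a sharp peak on day 2 in D6-deficient skin. Its D6-deficient arrays read 13.65, 13.28 and 13.32 on day 2, all above the WT arrays at 12.82, 12.77 and 12.99. The difference between the genotypes was 0.56 (1.47-fold, SE 0.12, adjusted p = 0.00737), the only member to pass on that day, where 2.46% of all tested probe sets passed as higher. Within D6-deficient skin it rose by 0.68 from day 1 to day 2 (adjusted p = 0.000625) and fell by 0.91 from day 2 to day 4 (adjusted p = 1.04e-05), back to 12.51 against 12.47 in controls. In WT skin the change from day 0 to day 2 was 0.32 and did not pass (adjusted p = 0.0596), although it passed after median centring of the arrays (0.37, adjusted p = 0.0445). The changes to day 2 differed between the genotypes by 0.63 (SE 0.17, adjusted p = 0.0336).

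The day 2 difference in Ctss was 0.65 and 0.44 within the 2 sets of arrays. It no longer passed without D6-deficient day 2 replicate 1 (0.44, adjusted p = 0.0575) and with only the arrays of the contrast in the fit (adjusted p = 0.0562). The difference between the changes no longer passed without any 1 of 7 of its 12 arrays, with values from 0.51 to 0.69 and adjusted p values up to 0.101. The macrophage markers summed to 34242 to 37275 in WT and 46260 to 50099 in D6-deficient skin on day 2, and 3 of the 9 passed as higher. All 6 dendritic cell markers summed to 19092 to 23721 and 17860 to 25364, and 1 of them passed, as lower. Of the 10 neutrophil genes, 7 passed as higher. Their part in the Ctss difference was not tested.

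Between successive days after TPA, no member was called by limma, whereas 5 of the members passed without the fold threshold on at least 1 interval and 6, the dimmer Ctsl probe set among them, had an unadjusted p under 0.05. The unpaired test of the methods also called 0 members. Of all tested probe sets 4.25% were called on at least 1 interval. That share is for the 3-fold call, and none is given for the counts of 5 and 6. From day 4 to day 6 alone, 12.1% of all passed as higher and 10% as lower in WT skin. In D6-deficient skin 16.8% and 14.5% did. From day 1 to day 2 in D6-deficient skin, 3 members passed as higher, Ctss, Ctsl and the dimmer Cstb probe set, against 5.18% of all. From day 4 to day 6, 3 members passed as lower in WT skin (10% of all), namely Stfa2l1, Cstb and Ctsl, and 3 probe sets of Cstb and Ctsl in D6-deficient skin (14.5% of all). Single members passed in WT skin from day 2 to day 4, Ctsl at 0.38 (adjusted p = 0.0136, 7.16% of all higher), and in D6-deficient skin over the same interval, Ctss as above (8.54% of all lower).

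Of the relatives of these genes in lists of the same families, Csta (RefSeq Csta1), another stefin A gene at the edge of the cluster, rose by less than Stfa3. It rose in WT skin from 12.02 to 13.42, 13.86, 13.92 and 13.05 on days 1, 2, 4 and 6, and the change of 1.89 on day 4 was called (SE 0.18, adjusted p = 2.32e-08). In D6-deficient skin the change on day 4 was 1.33 (adjusted p = 3.01e-06). Cst7, cystatin F of leukocytes, rose by 1.26 in WT and 1.15 in D6-deficient skin on day 4. Of the 10 probe sets found for 10 other stefin A and cystatin genes only 3 passed the filter on dim probe sets, and none of the 3 differed between the genotypes in limma on any day.

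The other cathepsins and legumain, a lysosomal protease that cystatin M/E inhibits, were measured by 24 probe sets of 13 genes, all of which passed the filter. In D6-deficient skin on day 2, 16 of them passed as higher than in controls and 1 as lower, where 17.5% and 20.6% of all probe sets did. In WT skin on that day the counts were 4 and 1, against 11% and 15%. Between the genotypes on day 2, 6 of the 24 passed as higher in D6-deficient skin and none as lower, where 2.46% and 1.99% of all did, and the median difference was 0.30 against -0.02 over all tested probe sets. The 6 were the 3 probe sets of Ctsz by 0.62, 0.73 and 0.63, Lgmn by 0.69 (adjusted p = 0.00938), Ctsg of neutrophil granules by 1.19 (adjusted p = 0.0462) and 1 of the 5 for Ctsb by 0.44 (adjusted p = 0.0262). On day 2, 3 of the 9 macrophage and 7 of the 10 neutrophil markers passed as higher in D6-deficient skin too, and their part was not tested. By day 4, however, Ctsg fell from 6.75 to 5.48 in D6-deficient skin, where the summed neutrophil genes had their highest mean.

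Lgmn climbed from 10.58 in WT controls to 12.18 on day 4 and from 10.05 to 11.85 in D6-deficient skin, changes of 1.60 and 1.81 that were called in both. In controls, 2 of the 24 probe sets passed as lower in D6-deficient skin, both of Ctsb, by -0.72 (adjusted p = 0.00237) and -0.56 (adjusted p = 0.0158), which is the direction of Ctsl there. Ctsd, the aspartic protease cathepsin D, differed between the genotypes on day 2 by 0.09, and its change from day 0 to day 2 passed in WT skin at 0.39 and in D6-deficient skin at 0.57. Tgm3, a transglutaminase that cathepsin L can activate, rose by 3.06 on the more responsive of its probe sets in WT skin on day 2 (SE 0.34, adjusted p = 5.75e-07) and by 2.68 in D6-deficient skin. All 4 transglutaminase probe sets were called higher in WT skin on day 2 and 1 of 4 in D6-deficient skin, against 1.2 and 1.7% of all. Without the fold threshold all 4 passed as higher in both genotypes, against 11% of all in WT and 17.5% in D6-deficient skin. None of the 4 passed between the genotypes on day 2 itself, whereas for Tgm1 the changes differed by -1.20 (adjusted p = 0.0294).

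**Figure D4:**
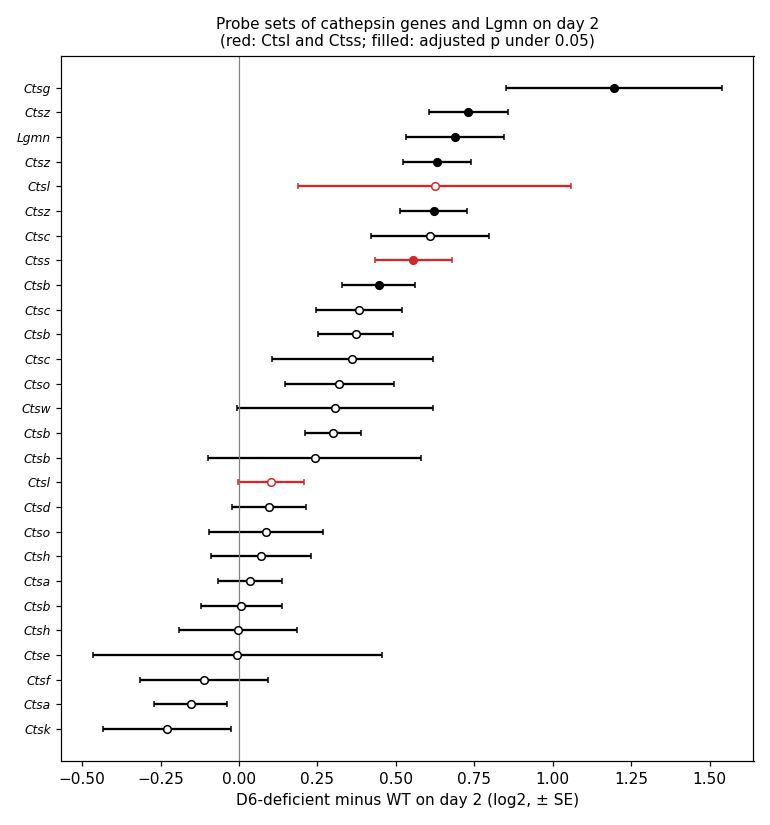
Difference between D6-deficient and WT skin on day 2 (x axis, log2, with SE bars from limma) for each probe set of the cathepsin genes and Lgmn (y axis, 1 row per probe set, sorted by value), with Ctsl and Ctss in red and an adjusted p under 0.05 shown by a filled point. Filled points run from 0.44 for a Ctsb probe set to 1.19 for Ctsg, with Ctss at 0.56 among them.

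The genes whose 10 group means were most like each member differed between the groups of members. Likeness is Pearson's r over the group means and describes a shared course, which after TPA many genes have. For Stfa1 and BC100530 the nearest were Stfa3, Krt6b (r = 0.982), probe sets of the Sprr2a genes (0.978 and 0.975) and Stk24 (0.977), and for Stfa3 the same genes ranked nearest (0.974 to 0.996). For Stfa2l1 they were Sprr1b (0.995), Degs2, Stard4, Krt16 (0.987) and Prelid1. Sprr genes encode small proline-rich precursors of the cornified envelope, and Krt6b and Krt16 were higher in D6-deficient controls as stated above.

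For the brighter Cstb probe set the nearest genes were Cxcl16, Il1rn, Endou, Ehf and Lce3a, all with r between 0.974 and 0.980. For Cst6 the nearest named transcripts, led by AA619741, reached r of 0.901 to 0.921. For Ctsl they were Bend4, Rabgap1l, 2810474O19Rik, Edem1 and Mtmr9 (0.974 to 0.981), and for Ctss Pitx1 (0.992), B630005N14Rik, Cd22, AF251705 and Ebi3. Among the members themselves, the stefin A probe sets correlated with one another at r of 0.954 to 0.996 and with Cstb at 0.839 to 0.954, with Ctsl at 0.510 to 0.707 and with Cst6 at 0.117 to 0.171.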

How the data were processed

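Total RNA of whole back skin was hybridized to Affymetrix mouse arrays, 1 mouse per array. The authors background-corrected, quantile-normalized and summarized the probes by RMA in GeneSpring and deposited linear intensity values, and the log2 of each deposited intensity was used here without further scaling. A further deposited text holds a sample sheet and was not used. Groups follow the labels. Of 45101 probe sets, 64 controls and the 20% with the lowest mean were left out, and 36029 were tested. The 30 arrays entered a single linear model of group means in limma 3.58.1 (lmFit, eBayes) under R 4.3.3, and p values were adjusted by Benjamini-Hochberg over the tested probe sets of each contrast. The methods' unpaired t-test was an alternative. Relative to day 0 it used each treated array less the median of its controls, so the spread of the controls did not enter. Precision is set by the number of arrays, and with 3 per group the smallest p of an exact permutation test is 0.1. The fit was tested on simulated data with planted changes. Every member probe set is named, as are relatives from fixed family lists and the 5 genes most like each member over group means. The members and lists were chosen with earlier results of these data known. Gene order and promoters are from RefSeq GRCm38.p6, and promoters were aligned with Biopython 1.88 in Python 3.11.15. Figures were drawn with matplotlib 3.10.9.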

Additional observations from a re-analysis of the deposited data

Results flagged for a closer look

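Each of the following was flagged because the change from day 0 differed between the genotypes in limma, as a test of the difference itself. On day 2 the difference between the changes, D6-deficient minus WT, was -2.89 for the probe set shared by Stfa1 and BC100530 and -2.57 for Stfa3, and on day 4 it was -2.40 for Stfa3. On day 2 it was 0.64 for the brighter Ctsl probe set and 0.63 for Ctss. For the stefins and Ctsl the genotypes differed in the controls and lay close together on the later day, whereas for Ctss they lay close together in the controls and differed on day 2.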

How the results depend on the processing

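With 9 member probe sets, the calls against day 0 numbered 3 in each genotype. They numbered 2 between the genotypes on the same day, 2 relative to day 0 and 0 between successive days. Of all tested probe sets, 4.79% were called against day 0 in WT skin and 6.48% in D6-deficient skin. The shares were 0.73% on the same day, 1.2% relative to day 0 and 4.25% between successive days. Without the fold threshold the member counts were 7, 8, 4, 4 and 5. The 8 include the dimmer Ctsl probe set, which passed the filter only through D6-deficient arrays. No share of all probe sets on at least 1 day is given for these counts. On day 4 alone, 17.3% of all passed as higher and 21.8% as lower in WT skin. In D6-deficient skin 18.8% and 22.4% did. With only the arrays of the contrast in the fit, 0 members were called between the genotypes on the same day and 0 relative to day 0. The methods' t-test with Benjamini-Hochberg adjusted values called 0 on the same day. Relative to day 0 the count was 1 with no filter on low values, 1 with the hybridization control set as a covariate and 1 with the replicate number as a block. The replicate numbers do not pair the samples, since each array is from another mouse and same-numbered arrays deviated together with r from -0.352 to 0.481 (31 of 135 pairs over 0.1). Leaving out 1 array at a time gave 3 members for WT skin against its controls, 3 to 4 for D6-deficient skin, 1 to 3 on the same day, 1 to 2 relative to day 0 and 0 to 1 between successive days. The 1 came from leaving out WT day 6 replicate 2. Of 207 member contrasts 68 passed, none of them turned direction under any alternative, and the median centring of arrays lost none of them. The methods' t-test with adjusted values lost 32 of the 68, among them Stfa1 and BC100530 in WT skin on days 1, 2 and 6 (adjusted p = 0.0813, 0.0704 and 0.118). No other call changed under the replicate block than those of Stfa1 and BC100530 at -2.89 on day 2 (adjusted p = 0.0515) and Stfa3 at -2.40 on day 4 (adjusted p = 0.0582). Fewer arrays in a fit leave fewer degrees of freedom; the cause of the other shifts was not tested. Probes near background, such as the dimmer Ctsl probe set, limit what can be read from them.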
